A study of Mus musculus with 28 samples.

Results

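Transforming growth factor beta (TGF-beta) is a secreted signal that acts on nearly every cell of a peripheral nerve. Described here are 10 of its genes in developing and adult mouse nerve, namely the ligands Tgfb1, Tgfb2 and Tgfb3, the latency protein Ltbp1, the receptors Tgfbr1, Tgfbr2 and Tgfbr3, the inhibitors Smad7 and Ski, and the induced matrix protein gene Tgfbi. They were chosen by name from 41605 gene identifiers, and all 10 were among the 17700 genes with enough counts to be tested. Messenger RNA was sequenced in bulk from 28 libraries, 4 at each of 7 stages, which the labels name embryonic day (E) 13 and E17, postnatal day (P) 1, P5, P14 and P24, and P60, the young adult. By the study's methods the embryos were aged E13.5 and E17.5. All groups were wild-type C57BL/6J mice that received no treatment and were not perfused, and they differed in age. Each E13 library pooled nerves from 2 embryos, taken from various sites outside the dorsal root ganglia and not stripped, although the label reads sciatic nerve. Each E17 library pooled the sciatic nerves of 2 embryos and each postnatal library came from 1 mouse, and from E17 on the epineurium and perineurium were pulled off by hand. The study used both sexes at each stage, and the labels do not give the sex of a library.

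TGF-beta ligands are secreted in a latent form, in which the propeptide holds the ligand and is tethered to the matrix by a protein such as Ltbp1. After release, the dimer binds the type II receptor Tgfbr2, which phosphorylates the type I receptor Tgfbr1, and Tgfbr1 in turn phosphorylates Smad2 and Smad3, which enter the nucleus with Smad4. Tgfbr3 (betaglycan) presents ligand to Tgfbr2 and is known above all for capturing Tgfb2. Smad7 blocks Tgfbr1 and Ski blocks Smads on DNA. In nerve, TGF-beta is known to act on the growth and survival of Schwann cells, the glia that ensheathe axons, and on the fibroblasts that lay down matrix.

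Values are CPM (counts scaled to a common library total, here with TMM), given for the 4 libraries of a stage in the order of their replicate numbers or as mean ± SD (n = 4). A change is a log2 fold change, second stage minus first, ± SE from edgeR's quasi-likelihood test on all 28 libraries, with p adjusted over all 17700 genes. A gene is said to have passed where the adjusted p was under 0.05 and is called where it also changed at least 2-fold. Total counts were 13899895 to 37662780 per library. Within their stage, E13 replicate 1, E13 replicate 4 and P1 replicate 1 deviated with the GC content of the transcripts (slopes of -0.93, 0.73 and -0.43 log2 units per 10 percentage points of GC, against -0.16 to 0.2 in the other 25). The 5 Schwann cell markers were detected at every stage, with a summed level of 322 to 657 CPM at E13 and 27647 to 37116 CPM at P60. Most of the P60 sum was the myelin gene Mbp, with means of 67.7 and 28317 CPM at these stages, whereas the transcription factor gene Sox10 had means of 117 and 449. The receptor gene Erbb3 was at 221 CPM at E13, highest at P1 (920) and at 351 at P60. Neuronal cell body markers summed to 658 to 1288 CPM at E13 and to 5.16 to 40.7 CPM at all later stages, and erythroid markers to 4178 to 25225 CPM at E13 and to at most 848 CPM later. Skeletal muscle markers summed to 485 CPM in E13 replicate 2 and to 18.8 to 38.3 CPM in the other E13 libraries, and that library had the highest E13 value of 8 of the 10 genes. Without it the change of Ltbp1 from E13 to E17 was 1.20 (adjusted p = 0.00017) instead of 0.97, and the part of muscle in these levels was not tested. Age cannot be told apart from tissue and dissection in any comparison with E13.

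Of the 10 genes, 8 were called along the timeline by a test of all stages together, against 70.3% of all genes tested. Tgfb1 did not pass (adjusted p = 0.62, with stage means within 0.38 on the log2 scale), and Ski passed (adjusted p = 4.3e-05) with stage means 0.98 apart. The range between the highest and lowest stage, on log2 CPM with a prior count of 2, was 10.8-fold for Tgfbr3, 6.91-fold for Tgfbi, 6.47-fold for Tgfb2, 5.86-fold for Tgfbr2, 3.57-fold for Smad7, 2.7-fold for Tgfbr1, 2.64-fold for Tgfb3 and 2.07-fold for Ltbp1. When 1 library was left out, 7 to 9 of the 10 were called (7 without E17 replicate 1 and 9 without E13 replicate 2, P60 replicate 1 or P60 replicate 3), and 7 were without all E13 libraries. By mean CPM, E13, E17 and P60 were each the highest stage of 3 genes and P5 of 1, and the lowest stage was E13 for 5, P1 for 4 and P60 for 1.

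From E13 to E17 3 of the 10 genes were called higher (Tgfbr2, Tgfbr3 and Tgfbi), against 14.2% of all genes, and 1 was called lower (Tgfb2), against 21.2%. From E17 to P1 none was called higher and 1 lower (Smad7), against 6.31% and 5.41%. From P1 to P5 1 was called higher (Tgfb2) and none lower, against 4.05% and 1.79%. The steps after P5 held no called member. From P5 to P14 the share of all genes called was 7.11% higher and 4.91% lower. It was 1.51% and 1.14% for the step that ended at P24, and 2.55% and 3.41% for the step that ended at P60. DESeq2 called 0 members at these 3 steps too, and limma-voom called 0, 0 and 1. At an unadjusted p under 0.05, edgeR gave 6, 2 and 2 members, against 39%, 16.3% and 27.7% of all genes. Between P1 and P60, 3 were higher (Tgfb3, Tgfbr2 and Smad7) and 3 lower (Tgfbr1, Tgfbr3 and Tgfbi), against 20.3% and 15.2%.

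With no fold minimum, 6 members passed from E13 to E17 (62.2% of all genes), 5 from E17 to P1 (29.5%), 2 from P1 to P5 (17.6%), 5 from P5 to P14 (29.6%), 0 over the step to P24 (5.45%), 2 over the last step (16.1%) and 7 from P1 to P60 (61.1%). The median change of the 10 genes from E13 to E17 was 0.42, beside -0.08 over all genes. From P1 to P60 it was 0.34, beside -0.02. The map of the changes gives each value.

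**Figure D1:**
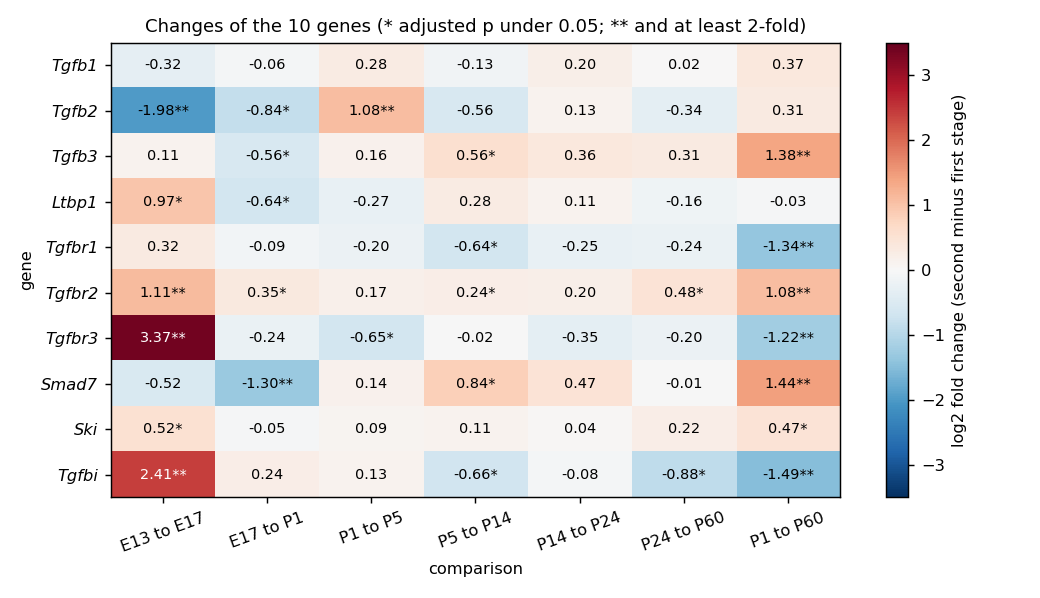
Log2 fold change of the 10 genes (rows) between the stages named on the horizontal axis, second minus first, from the edgeR fit of 28 libraries. The color scale and the printed numbers give the log2 change, 1 star an adjusted p under 0.05 and 2 stars a change that is also at least 2-fold. The darkest cell is Tgfbr3 from E13 to E17 (3.37), and the column from P14 to P24 holds no star.

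The 3 ligands are made by separate genes. Tgfb1 (ENSMUSG00000002603) lies at chr7:25687002-25705077 on the plus strand, Tgfb2 (ENSMUSG00000039239) at chr1:186622792-186705989 on the minus strand and Tgfb3 (ENSMUSG00000021253) at chr12:86056745-86079041 on the minus strand (GRCm38, GENCODE M21). Exons of Tgfb2 overlap the antisense gene Gm29491, and exons of Tgfb3 overlap Gm37804 and Gm48008 on the opposite strand. Whether the counting used the strand is not stated in the study, so reads of these partners cannot be told apart from those of the ligands. The promoters of Tgfb1 and Tgfb2 are shown because these ligands had the flattest and the widest stage profile of the 3. Each is the 250 bases before the start of the RefSeq transcript (GRCm38.p6), read 5′ to 3′ on the strand of the gene, Tgfb1 from chr7:25686752-25687001 (plus strand) and Tgfb2 from chr1:186705990-186706239 (minus strand). Capitals mark matches to 4 short motifs, searched on either strand, and no marked match overlaps another. The GC box, bound by Sp1-like factors, was searched as GGGCGG. The TATA box, which places the polymerase in some promoters, was searched as TATAAA. The site of AP-1 factors was searched as TGACTCA. The core of the box named CAGA, to which Smads bind, was searched as CAGACA.
Tgfb1: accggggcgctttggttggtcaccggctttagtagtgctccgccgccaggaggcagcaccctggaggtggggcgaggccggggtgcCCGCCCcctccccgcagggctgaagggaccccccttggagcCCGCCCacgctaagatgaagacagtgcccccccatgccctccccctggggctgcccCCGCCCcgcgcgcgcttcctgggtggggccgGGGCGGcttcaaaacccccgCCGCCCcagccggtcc
Tgfb2: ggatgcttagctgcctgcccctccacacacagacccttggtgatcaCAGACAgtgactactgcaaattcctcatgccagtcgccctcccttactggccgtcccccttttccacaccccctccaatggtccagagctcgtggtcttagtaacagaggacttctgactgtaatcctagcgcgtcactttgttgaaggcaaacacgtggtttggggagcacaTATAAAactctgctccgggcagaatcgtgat
The Tgfb1 window had 5 GC boxes, a GC content of 75.2% and 21 CG dinucleotides. The Tgfb2 window had 1 TATA box close to the start and 1 CAGA core, a GC content of 53.6% and 8 CG dinucleotides. Over 32851 RefSeq promoters of the same length, 32.7% held the GC box, 12.4% the TATA box, 4.46% the AP-1 site and 17.1% the CAGA core, with a median GC content of 52.4% and a median of 6 CG dinucleotides. These are matches of letters and not sites of known use.

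Tgfb1, the isoform best known from platelets and immune cells, was at 3.18, 9.05, 5.96 and 9.26 CPM at E13, at 4.23, 6.18, 5.78 and 5.66 at E17 and at 4.45, 4.91, 5.07 and 6.55 at P1. It was at 7.38, 5.41, 7.44 and 5.36 CPM at P5, at 6.54, 5.37, 5.15 and 6.3 at P14, then at 8.59, 3.71, 7.95 and 6.7 at P24, and lastly at 6.29, 6.75, 6.34 and 7.85 at P60. The libraries of all adjacent stages overlapped, and no comparison of stages passed. The largest difference over the 21 pairs of stages was from E13 to P1 (-0.38 ± 0.25, adjusted p = 0.194). Without E13 replicate 1, whose value was the lowest of its stage, the change from E13 to E17 was -0.57 (adjusted p = 0.0223) instead of -0.32 (adjusted p = 0.282). No neighbours in the order of its stage means differed.

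Tgfb2 was high at E13 and low from E17 on. It was at 34.3, 37.2, 17.6 and 12.4 CPM at E13 and at 7.92, 6.5, 6.36 and 5.03 at E17. Newborn levels were 4.19, 2.58, 4.92 and 2.73 CPM at P1 and 6.75, 7.02, 8.73 and 8.11 at P5. All E13 libraries lay above all E17 libraries, all E17 libraries above all P1 libraries, and all P5 libraries above all P1 libraries. It fell from E13 to E17 (-1.98 ± 0.27, adjusted p = 4.4e-07, and -1.76 without E13 replicate 2), fell again to P1 (-0.84 ± 0.27, adjusted p = 0.0201) and rose to P5 (1.08 ± 0.27, adjusted p = 0.00488). The fall to P1 no longer passed without E17 replicate 1 (adjusted p = 0.066), P1 replicate 2 (0.0782) or P1 replicate 4 (0.0722). The rise to P5 was under 2-fold without P1 replicate 2 (0.96) or P1 replicate 4 (0.97) and on library sizes without TMM (0.88), and it passed in each of these.

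The 4 immune markers (Ptprc, Cd68, Csf1r, Adgre1) summed to 58.5 to 72.1 CPM at P1 and to 114 to 132 CPM at P5, all of them above 0. Pericyte and smooth muscle markers (162 to 178 and 296 to 374 CPM) and endothelial markers (113 to 140 and 157 to 199 CPM) were higher at P5 too. So were Schwann cell markers (7711 to 14016 and 29589 to 34591 CPM). Fibroblast-like sums overlapped between P1 and P5, and cartilage markers were lower at P5. The part of any of these cells in the rise of Tgfb2 was not tested. Later Tgfb2 levels were 5.16, 4.8, 4.94 and 5.85 CPM at P14, then 4.1, 5.49, 6.57 and 6.4 at P24, and in the adult 3.73, 3.41, 5.41 and 5.27 CPM. In the order of stage means, E13 stood above P5 (adjusted p = 2.2e-06), and no other neighbours differed.

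Tgfb3 rose between P1 and P60. Its libraries were at 11.8, 16.7, 22.2 and 15.1 CPM at P1, and at 18, 18.5, 20.9 and 16.2 at P5. In older nerves they were at 33.2, 22.1, 21.7 and 31.2 CPM at P14, then at 32, 24.7, 41.9 and 40 at P24, and in the adult at 47.9, 34.7, 42.5 and 46.5 CPM. The P60 libraries lay above all libraries of P1, P5 and P14 and overlapped those of P24. The rise from P1 to P60 was 1.38 ± 0.20 (2.61-fold, adjusted p = 1.3e-06). Of the single steps after birth, that from P5 to P14 passed (0.56 ± 0.20, adjusted p = 0.0355). It did not pass on library sizes without TMM (0.39, adjusted p = 0.164) or with no filter on low counts (0.54, adjusted p = 0.0545), nor without P5 replicate 1 (adjusted p = 0.0731), P5 replicate 2 (0.0666), P5 replicate 4 (0.102), P14 replicate 1 (0.131) or P14 replicate 4 (0.107).

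Before birth, Tgfb3 was at 17.6, 31.5, 21.2 and 19.3 CPM at E13 and at 27.5, 26.7, 21.7 and 21 at E17, overlapping ranges with a change of 0.11 ± 0.20 (adjusted p = 0.64). From E17 to P1 it fell by 0.56 (SE 0.20, adjusted p = 0.0358), although 1 library of P1 lay inside the range of E17. That fall did not pass without E17 replicate 1 (adjusted p = 0.0911), E17 replicate 2 (0.0831), P1 replicate 1 (0.113), P1 replicate 2 (0.0674) or P1 replicate 4 (0.0825). It also did not pass without the 3 libraries that followed GC content (-0.44, adjusted p = 0.0702) or with no filter on low counts (-0.51, adjusted p = 0.0714). No neighbours in the order of its stage means differed, while P60 stood above E17 by 0.82 (adjusted p = 0.00078).

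The latency protein gene Ltbp1 (ENSMUSG00000001870, chr17:75005568-75392512, plus strand) was highest at E17. Its libraries were at 33.5, 47.5, 29.6 and 17.9 CPM at E13 and at 71.7, 65.8, 59.1 and 55.5 at E17. In the first postnatal week the values were 44, 32.7, 52.5 and 32.6 CPM at P1 and 34.3, 30.1, 39 and 30.7 at P5. All E17 libraries lay above all libraries of these 3 other stages. Ltbp1 rose from E13 to E17 (0.97 ± 0.24, adjusted p = 0.00106) and was lower at P5 than at E17 (-0.91, adjusted p = 0.00316).

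The single step from E17 to P1 passed narrowly (-0.64 ± 0.24, adjusted p = 0.0444). It did not pass when any one of 13 libraries was left out, namely E17 replicate 1, 2 or 3, P1 replicate 2 or 4, P5 replicate 1, 2 or 4, P14 replicate 3 or 4, P24 replicate 1, or P60 replicate 3 or 4. Its value was then -0.67 to -0.55 and its adjusted p at most 0.134, without P1 replicate 2. Nor did it pass with the GC trend removed (-0.64, adjusted p = 0.059) or with no filter on low counts (-0.59, adjusted p = 0.0925). From P14 on the mean was 40.7 ± 7.78, 44 ± 11.7 and 39.6 ± 11.9 CPM. The change from P1 to P60 did not pass (-0.03 ± 0.24, adjusted p = 0.925), and no neighbours in the order of stage means differed.

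**Figure D2:**
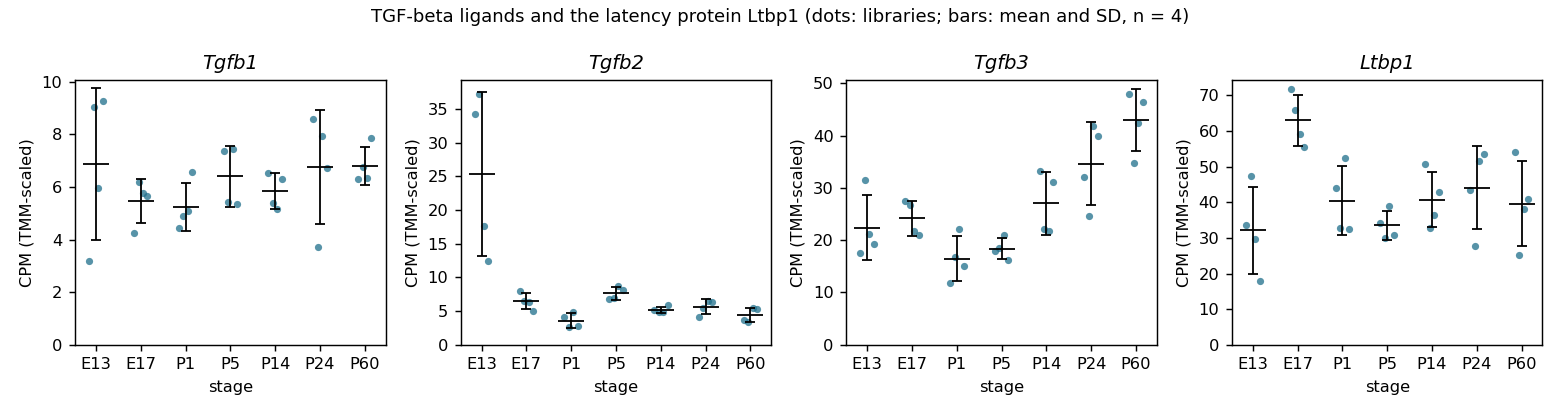
Level of the 3 ligands and of Ltbp1 (vertical axes, TMM-scaled CPM, each from 0) at the 7 stages, with 1 dot per library and bars for mean and SD (n = 4). Tgfb2 stands at 12.4 to 37.2 CPM at E13 and at 2.58 to 8.73 CPM in all later libraries, while Tgfb3 climbs from 16.5 CPM at P1 to 42.9 CPM at P60.

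To compare the ligands with each other, CPM was divided by the summed exon length of each gene in kilobases. On that scale of levels Tgfb3 was the most abundant ligand in 27 of 28 libraries and Tgfb2 in 1, E13 replicate 1. At E17 the levels were 7.16 ± 0.99 CPM per kb for Tgfb3, 1.11 ± 0.204 for Tgfb2 and 1.08 ± 0.168 for Tgfb1. At P60 they were 12.7 ± 1.75, 0.769 ± 0.178 and 1.35 ± 0.144. The ligands thus lay further apart in the adult nerve than at E17.

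As a share of the summed ligand level of a library, Tgfb3 held 54 ± 7.13% at E13 and 76.4 ± 1.94% at E17. After birth it held 73.9 ± 4.62% at P1, then 67.7 ± 2% at P5, and later 79.2 ± 2.16% at P14, then 81.5 ± 1.38% at P24 and finally 85.6 ± 1.8% at P60. The Tgfb2 share was 34.5 ± 12.1% at E13 and 11.9 ± 1.29% at E17, then after birth 9.71 ± 3.26% at P1, and 16.5 ± 2.02% at P5 against 5.2 ± 1% at P60. The Tgfb3 share was lowest after E13 at P5, the stage at which the Tgfb2 share had its highest mean after E13. Between E17 and P60, 2 stages of stripped sciatic nerve, the Tgfb3 share was higher by 9.19 percentage points at P60 and the Tgfb2 share was lower, with a difference of -6.66 points, each with no overlap of libraries (two-sided exact permutation p = 0.0286 each, adjusted p = 0.0381 over 4 tests). With 4 against 4 libraries 0.0286 is the smallest p possible. The Tgfb1 share went from 11.8 ± 2.52% to 9.22 ± 1.4%, with overlap (exact permutation p = 0.143, adjusted p = 0.143). The shares depended on the length used. With the longest transcript of each gene the Tgfb1 share was 20.3 ± 4.03% at E17 and 16.5 ± 2.29% at P60, above Tgfb2 at both (11.9 ± 1.47% and 5.37 ± 1.03%). Tgfb3 then held 67.7 ± 3.06% and 78.2 ± 2.55%, and at E13 46.7 ± 5.28%, beside 34.1 ± 12.9% for Tgfb2. With no length scaling, the E13 means were 41.7 ± 7.24% for Tgfb3 and 44.9 ± 13.6% for Tgfb2. At P60 they were 79.1 ± 2.44% and 8.22 ± 1.53%. On that scale Tgfb3 was the most abundant ligand in 26 libraries and Tgfb2 in 2. Shares are tied to each other, so that the 3 tests are not independent.

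The signalling receptors Tgfbr1 and Tgfbr2 went in opposite directions after birth. Tgfbr1 (ENSMUSG00000007613) lies at chr4:47353222-47414931 on the plus strand and Tgfbr2 (ENSMUSG00000032440) at chr9:116084293-116175360 on the minus strand. The 250 bases before their RefSeq starts are shown because the receptors work as a pair and their levels parted, with the same motifs in capitals. They are from chr4:47352972-47353221 (plus strand, the first of 2 Tgfbr1 starts in the table) and chr9:116175364-116175613 (minus strand).
Tgfbr1: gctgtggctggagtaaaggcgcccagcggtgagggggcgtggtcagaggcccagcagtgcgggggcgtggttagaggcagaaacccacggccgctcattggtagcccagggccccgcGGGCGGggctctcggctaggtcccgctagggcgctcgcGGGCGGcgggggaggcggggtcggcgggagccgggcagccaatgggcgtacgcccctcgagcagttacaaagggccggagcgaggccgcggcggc
Tgfbr2: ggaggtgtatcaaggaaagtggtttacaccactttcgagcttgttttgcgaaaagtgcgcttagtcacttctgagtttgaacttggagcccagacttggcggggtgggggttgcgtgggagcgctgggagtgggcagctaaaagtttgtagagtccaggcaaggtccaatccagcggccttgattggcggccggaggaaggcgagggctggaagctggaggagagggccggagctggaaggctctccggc
The Tgfbr1 window had 2 GC boxes, a GC content of 74.8% and 29 CG dinucleotides, while the Tgfbr2 window had no match to the 4 motifs, a GC content of 58.4% and 12 CG dinucleotides. The promoter table held windows of 7 of the 10 genes, all but Tgfb3, Tgfbr3 and Smad7, and the windows of Ltbp1, Ski and Tgfbi are not shown.

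Tgfbr1, the type I receptor kinase, was at 94.9, 109, 97.8 and 102 CPM at E17. After birth it was at 114, 96.4, 85 and 83 CPM at P1 and 74.8, 87.1, 74 and 92.9 at P5. It was at 57.4, 54.3, 44.7 and 54 CPM at P14, then at 38.3, 43.9, 43.6 and 51.2 at P24, and in the adult at 42.6, 34.1, 37.4 and 35.5 CPM. All libraries of E17, P1 and P5 lay above all libraries from P14 on. Tgfbr1 fell from P1 to P60 (-1.34 ± 0.23, 2.53-fold, adjusted p = 1.4e-05) and from E17 to P60 (-1.43, adjusted p = 5e-06). The single step that passed was that from P5 to P14 (-0.64 ± 0.23, adjusted p = 0.0313). It did not pass without P5 replicate 2 (adjusted p = 0.0683), P5 replicate 4 (0.0873), P14 replicate 2 (0.0569), P14 replicate 3 (0.0959) or P14 replicate 4 (0.056), nor with no filter on low counts (-0.66, adjusted p = 0.0508).

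At E13 Tgfbr1 was at 135, 84.5, 72.5 and 32.2 CPM, the widest spread of any stage. The highest and the lowest value were those of E13 replicate 1 and E13 replicate 4, the libraries that followed GC content in opposite directions, and the GC content of Tgfbr1 is 41%. The change from E13 to E17 was 0.32 ± 0.22 and did not pass (adjusted p = 0.225). With the GC trend removed it was 0.47 (adjusted p = 5.8e-05), without the 3 libraries that followed GC content 0.37 (adjusted p = 0.00525), and without E13 replicate 1 0.67 (adjusted p = 0.00204). On library sizes without TMM it was 0.05 (adjusted p = 0.861), and with DESeq2 0.29 (adjusted p = 0.257). In the order of stage means, E13 stood above P14 (adjusted p = 0.0159), and no other neighbours differed.

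Tgfbr2, the type II receptor that first binds the ligand, had stage means that were higher at each later stage on the TMM scale. It was at 41, 58.1, 44.6 and 41.9 CPM at E13 and at 107, 98.2, 99.9 and 96.7 at E17. Newborn levels were 122, 126, 135 and 127 CPM at P1 and 150, 139, 140 and 144 at P5. It was at 171, 167, 165 and 172 CPM at P14, then at 207, 179, 188 and 201 at P24, and in the adult at 277, 260, 262 and 281 CPM. The libraries of no adjacent stages overlapped. Tgfbr2 rose from E13 to E17 (1.11 ± 0.09, adjusted p = 3.7e-11), to P1 (0.35 ± 0.09, adjusted p = 0.00392) and from P24 to P60 (0.48 ± 0.09, adjusted p = 0.00032). From P1 to P60 it rose 2.12-fold (1.08 ± 0.09, adjusted p = 4.9e-11). On library sizes without TMM the changes from E13 to E17 (0.86) and from P1 to P60 (0.89) passed (adjusted p = 2.6e-08 and 1.3e-08) but were under 2-fold.

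The small steps of Tgfbr2 depended on the scaling. The step from E17 to P1 was 0.23 (adjusted p = 0.0817) on library sizes without TMM, a scaling that moved the median of all genes by 0.11 or more downward over each of the first 4 steps. The step from P5 to P14, which passed narrowly (0.24 ± 0.09, adjusted p = 0.0449), was then 0.06 (adjusted p = 0.657), and it did not pass when any one of 15 libraries was left out, namely each library of P5, P14 and P60, P1 replicate 2, and P24 replicate 3 or 4 (highest adjusted p 0.105). With the replicate number as a block it was 0.24 (adjusted p = 0.0607), and with no filter on low counts 0.22 (adjusted p = 0.166). The step from P1 to P5 did not pass (0.17 ± 0.09, adjusted p = 0.215). It was 0.15 with limma-voom (adjusted p = 0.0138) and -0.03 on library sizes without TMM, so no direction is given for it. From P14 to P24 the change did not pass (0.20 ± 0.09, adjusted p = 0.248), whereas it passed under 5 alternatives. Among these, it was 0.21 with DESeq2 (adjusted p = 0.045) and 0.21 without the E13 libraries (adjusted p = 0.0117).

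Per kilobase of exon, Tgfbr1 was at 15.4 ± 0.946 CPM at E17 and 5.73 ± 0.569 at P60, while Tgfbr2 was at 12.3 ± 0.53 and 33 ± 1.26. The log2 ratio of Tgfbr2 to Tgfbr1 within a library, which no scaling of the library changes, was -0.97 ± 0.86 at E13 and -0.33 ± 0.14 at E17. After birth it was 0.12 ± 0.26 at P1, and 0.48 ± 0.18 at P5. In older nerves it was 1.36 ± 0.14 at P14, then 1.81 ± 0.21 at P24 and finally 2.53 ± 0.13 at P60. It was above 0 in 20 of 28 libraries, in 18 with the length of the longest transcript and in 23 with no length scaling. The P1 mean was -0.05 ± 0.26 with the longest transcript, and the E17 mean was -0.01 ± 0.14 with no length scaling. Per kilobase of exon, all 4 libraries of E17 had more Tgfbr1 (ratio -0.48 to -0.16) and all 4 of P60 more Tgfbr2 (2.37 to 2.66). The difference was 2.86 (two-sided exact permutation p = 0.0286, the smallest possible, adjusted p = 0.0381).

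**Figure D3:**
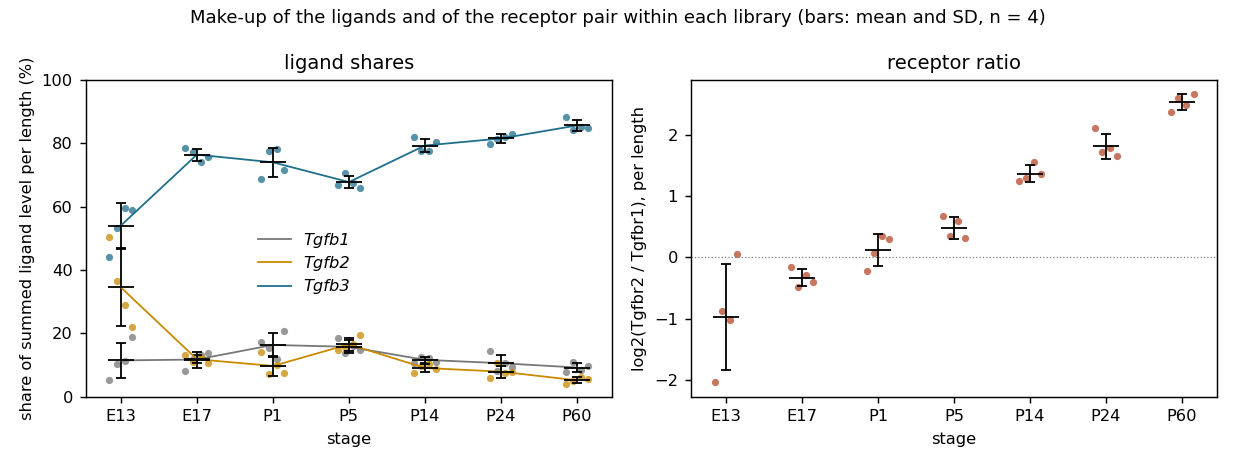
Left, share of each ligand in the summed ligand level per exon length of a library (vertical axis, percent). Right, log2 ratio of Tgfbr2 to Tgfbr1 per exon length (vertical axis, log2 units, dotted line at equal levels). Dots are libraries and bars are mean and SD (n = 4) at the 7 stages on the horizontal axis. The Tgfb3 share is 54% at E13 and 85.6% at P60, and the receptor ratio goes from -0.97 to 2.53.

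Markers of other cells of the nerve differed between the same stages. The 7 fibroblast-like markers summed to 346 to 404 CPM at P1 and 1291 to 1616 CPM at P60. Most of that difference was in Itgb4 (means of 113 and 814 CPM), Slc2a1 (23 and 256) and Ly6c1 (4.67 and 104), while Pdgfra had means of 123 and 182 CPM, Cd34 of 100 and 114 and Sox9 of 8.62 and 8.46. The study found Slc2a1 enriched in an endothelial cluster of P60 nerve too, so it does not mark fibroblast-like cells alone. Summed levels of the 4 endothelial markers (Pecam1, Cdh5, Cldn5, Tie1) were 113 to 140 and 318 to 349 CPM. The 4 pericyte and smooth muscle markers summed to 162 to 178 CPM at P1 and 537 to 588 CPM at P60. No marker of these lists was at 0 at any stage. All libraries of P60 lay above all libraries of P1 in these sums, as they did for Tgfb3 and Tgfbr2. The same held for the immune sum (58.5 to 72.1 CPM at P1 and 84.1 to 114 at P60). It also held for the neuronal cell body sum (5.16 to 12 and 30.9 to 40.7 CPM) and for the Schwann cell sum. Cartilage and erythroid sums were lower at P60. Of the Schwann cell markers, Erbb3 had means of 920 CPM at P1 and 351 at P60 and Sox10 of 354 and 449, while S100b had means of 114 and 972 and Mbp of 7756 and 28317. Thus Erbb3 was lower at P60, as Tgfbr1, Tgfbr3 and Tgfbi were, and the part of these cells in the levels of the 10 genes was not tested. In bulk nerve, fewer cells of a type and less RNA per cell cannot be told apart.

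The co-receptor gene Tgfbr3 (ENSMUSG00000029287, chr5:107106570-107289629, minus strand) had the widest range of the 10 genes. A gene model on the same strand, Gm43422, overlaps its exons, so that reads may be split between them. Tgfbr3 was at 80.3, 125, 77.7 and 52 CPM at E13 and at 862, 871, 854 and 865 at E17. In the first postnatal week the values were 763, 733, 722 and 714 CPM at P1 and 466, 449, 433 and 524 at P5. It was at 473, 439, 453 and 483 CPM at P14, then at 355, 394, 340 and 363 at P24, and in the adult at 333, 324, 297 and 306 CPM. The lowest library of E17 stood above the highest of every other stage, and E13 lay below all.

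Tgfbr3 rose 10.3-fold from E13 to E17 (3.37 ± 0.16, adjusted p = 6.7e-16). It fell from P1 to P5 (-0.65 ± 0.15, adjusted p = 0.00193) and from P1 to P60 (-1.22 ± 0.15, adjusted p = 5.3e-08). The steps from E17 to P1 (-0.24 ± 0.14, adjusted p = 0.238) and from P14 to P24 (-0.35 ± 0.14, adjusted p = 0.196) did not pass, although their libraries did not overlap. The same was true of the step from P24 to P60 (-0.20 ± 0.14, adjusted p = 0.405). Without the E13 libraries in the fit these steps were -0.24 (adjusted p = 0.00302), -0.34 (adjusted p = 0.00042) and -0.19 (adjusted p = 0.0219). In the order of stage means, P1 stood above P5 and P60 above E13 (adjusted p = 7.7e-12). Per kilobase of exon, Tgfbr3 was at 132 ± 1.08 CPM at E17 and 48.2 ± 2.51 at P60, above Tgfbr1 and Tgfbr2 at both stages.

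**Figure D4:**
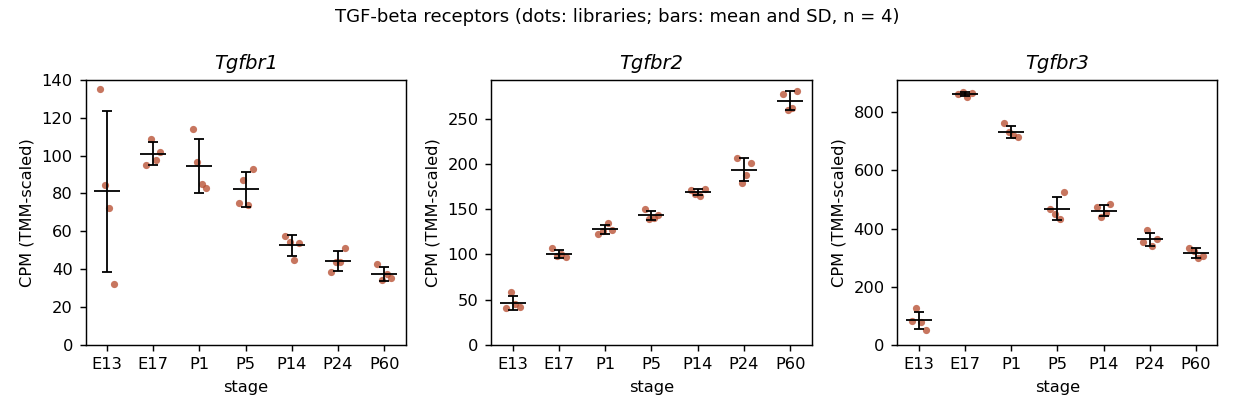
Level of the receptor genes Tgfbr1, Tgfbr2 and Tgfbr3 (vertical axes, TMM-scaled CPM, each from 0) at the 7 stages, with 1 dot per library and bars for mean and SD (n = 4). Tgfbr2 goes from 46.4 CPM at E13 to 270 CPM at P60 while Tgfbr1 goes from 101 CPM at E17 to 37.4 CPM at P60, and Tgfbr3 stands highest at E17 (863 CPM).

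The inhibitor genes differed from each other. Smad7 (ENSMUSG00000025880, chr18:75367529-75395935, plus strand), a feedback inhibitor of Tgfbr1, was at 5.56, 6.54, 5.27 and 6.37 CPM at E13 and at 4.62, 3.43, 4.31 and 4.15 at E17. After birth it was at 1.68, 1.58, 2.48 and 0.962 CPM at P1 and 1.46, 1.49, 2.82 and 1.62 at P5. It was at 3.58, 3.05, 2.86 and 3.68 CPM at P14, then at 4.89, 1.99, 5.93 and 5.42 at P24, and in the adult at 4.9, 4.21, 4.66 and 4.33 CPM. P1 and P5 were the low stages, and all their libraries lay below all libraries of E13, E17, P14 and P60. The lowest library of P1 held 31 counts, so that counting error adds to the spread there.

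Smad7 fell from E17 to P1 (-1.30 ± 0.28, adjusted p = 0.00062), rose from P5 to P14 (0.84 ± 0.27, adjusted p = 0.021) and was 2.7-fold higher at P60 than at P1 (1.44 ± 0.28, adjusted p = 6.8e-05). The rise to P14 did not pass without P5 replicate 1 (adjusted p = 0.0692), P5 replicate 2 (0.0725), P5 replicate 4 (0.0623) or P14 replicate 4 (0.0575), nor on library sizes without TMM (0.67, adjusted p = 0.0698). From E13 to E17 the change of Smad7 was -0.52 ± 0.26 and did not pass (adjusted p = 0.0859), whereas it passed on library sizes without TMM (-0.77, adjusted p = 0.0158) and without P24 replicate 2 (-0.51, adjusted p = 0.0415). The endothelial markers had their lowest sums after E13 at P1 (113 to 140 CPM, against 200 to 248 at E17). Their sums were higher at P5 (157 to 199 CPM), where the change of Smad7 from P1 did not pass (0.14 ± 0.28, adjusted p = 0.806). At E13, the stage with the highest Smad7 mean, they were 118 to 169 CPM. The part of endothelial cells in the Smad7 levels was not tested. P24 replicate 2 was the lowest P24 library for 6 of the 10 genes, namely Smad7, Tgfb1, Tgfb3, Ltbp1, Tgfbr2 and Tgfbi. Its endothelial sum was 166 CPM and its fibroblast-like sum 735 CPM, against 254 to 284 and 1051 to 1105 CPM in the other 3 P24 libraries. Pericyte and smooth muscle markers summed to 384 CPM in it, against 486 to 549, and immune markers to 76.6 CPM, against 118 to 130, and their part was not tested.

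Ski (ENSMUSG00000029050, chr4:155154075-155222592, minus strand), a corepressor of Smads, had a mean of 82.3 ± 22.6 CPM at E13 and 118 ± 6.73 at E17. Its postnatal means were 114 ± 17.7 CPM at P1, then 122 ± 9.82 at P5, and 132 ± 8.41 at P14. They were 136 ± 6.29 CPM at P24 and 158 ± 14.7 at P60. It rose from E13 to E17 (0.52 ± 0.14, adjusted p = 0.00168) and from P1 to P60 (0.47 ± 0.14, adjusted p = 0.00413). On library sizes without TMM both were 0.27 and did not pass (adjusted p = 0.0781 and 0.0752). The libraries of every pair of adjacent stages overlapped, and those of P1 (87.9, 121, 123 and 125 CPM) lay below those of P60 (142, 172, 149 and 169 CPM). Of neighbours in the order of stage means, P1 and E13 differed (adjusted p = 0.00344).

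Tgfbi (ENSMUSG00000035493, chr13:56609523-56639562, plus strand) encodes a matrix protein named for its induction by TGF-beta. It was at 56.1, 74, 48.8 and 58.2 CPM at E13 and at 351, 303, 329 and 276 at E17. Newborn levels were 374, 314, 374 and 429 CPM at P1 and 453, 385, 405 and 384 at P5. It was at 285, 238, 201 and 308 CPM at P14, then at 232, 121, 303 and 321 at P24, and in the adult at 183, 110, 104 and 132 CPM. E13 lay below every other stage, and P60 below E17, P1, P5 and P14. Tgfbi rose 5.31-fold from E13 to E17 (2.41 ± 0.22, adjusted p = 4.3e-10), fell from P5 to P14 (-0.66 ± 0.21, adjusted p = 0.0194) and from P24 to P60 (-0.88 ± 0.21, adjusted p = 0.00417), and was 2.81-fold lower at P60 than at P1 (-1.49 ± 0.22, adjusted p = 1.1e-06).

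The fall of Tgfbi to P14 did not pass without P5 replicate 1 (adjusted p = 0.0558), P14 replicate 2 (0.0556) or P14 replicate 3 (0.0794). P24 replicate 2, at 121 CPM, lay among the P60 libraries, and without it the change from P24 to P60 was -1.11 (adjusted p = 6.2e-05). When the 8 libraries of P24 and P60 were fitted alone, that change was -0.88 (adjusted p = 0.118). In the order of stage means P24 stood above P60 and P60 above E13 (adjusted p = 2.6e-05), while the 5 highest stages had no neighbours that differed. P60, the stage with the highest Tgfb3 and Tgfbr2 means, thus had the lowest Tgfbi mean after E13.

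**Figure D5:**
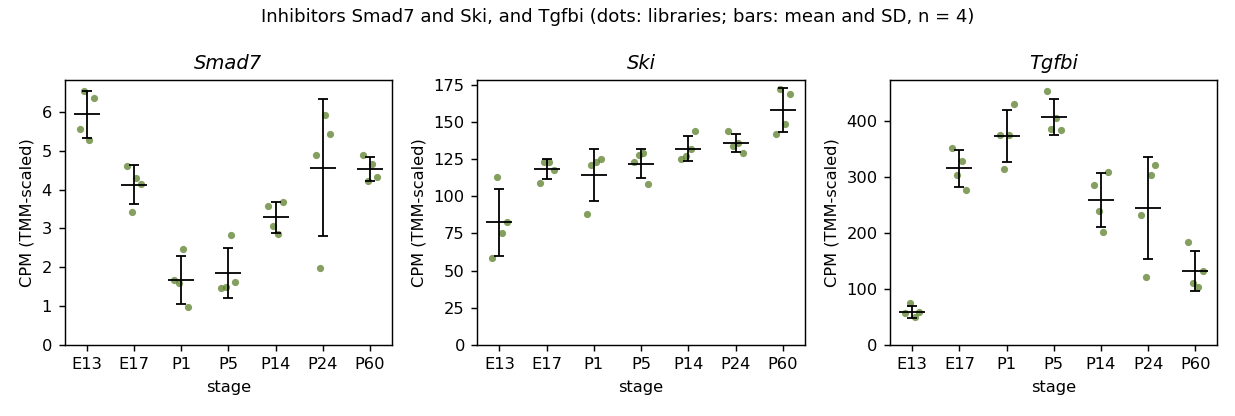
Level of the inhibitor genes Smad7 and Ski and of Tgfbi (vertical axes, TMM-scaled CPM, each from 0) at the 7 stages, with 1 dot per library and bars for mean and SD (n = 4). Smad7 is lowest at P1 (1.68 CPM) and P5 (1.85 CPM), and Tgfbi is highest at P5 (407 CPM) and stands at 132 CPM at P60.

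For each of the 10 genes, the genes of most similar stage profile were sought among 11444 genes, by the root-mean-square difference of log2 CPM over the 7 stage means after centring. Among the nearest to Tgfbr2 were Ppp1r9a (0.06) and Card19 (0.10). The nearest to Tgfbr1 were the splicing factor genes Ptbp1 (0.07) and Tra2b (0.07) and then Nupl1 (0.08), and to Tgfbr3 Samd5 (0.15), Parp14 (0.18) and Zeb2 (0.19). The nearest to Tgfb3 were Vsir (0.08), Ehbp1l1 (0.11) and Nhsl2 (0.12), and to Tgfb2 the myeloid genes Fcgr1 (0.20) and Myo1f (0.22) and then Rgs2 (0.22). The nearest to Tgfb1, whose profile was flat, were Ttc8 (0.06), Dctn1 (0.07) and Trim26 (0.08). For Ltbp1 they were Oat (0.05), Laptm4b (0.09) and Dcp2 (0.10), for Smad7 Fgf11 (0.19), Slc2a4rg-ps (0.21) and Pdpn (0.21), for Ski Yap1 (0.04), Ctnnd1 (0.05) and Fam126a (0.05), and for Tgfbi Arfip1 (0.16), Gas7 (0.21) and Rap2a (0.22). These are descriptions over 7 points that share their libraries.

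The rest of the pathway was followed in 5 lists of 76 genes, of which 74 had enough counts to be tested (Itgb6, with at most 50 counts in a library, and Mstn, with at most 107, had not). Along the timeline 63 of the 74 were called, against the 70.3% of all genes given above. Between E13 and E17 calls were made for 17 of these as higher and for 19 as lower, against 14.2% and 21.2% of all genes. From E17 to P1 2 were higher and 7 lower (6.31% and 5.41% of all genes), from P1 to P5 5 and 1 (4.05% and 1.79%), and from P5 to P14 10 and 5 (7.11% and 4.91%). They were 5 and 0 over the step to P24 (1.51% and 1.14%) and 3 and 7 over the last step (2.55% and 3.41%). Between P1 and P60 27 were higher and 14 lower (20.3% and 15.2%), with a median change of 0.27 against -0.02 over all genes. On library sizes without TMM the split from P5 to P14 was 4 higher and 7 lower. The genes named from each list are those with the widest range of stage means.

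Of the latency and activation genes, 12 of 14 tested were called along the timeline, against 70.3% of all genes. Itgb8, the integrin subunit that with Itgav releases active TGF-beta from its latent form, rose from 30.6 ± 16.6 CPM at E13 to 507 ± 27.8 at E17 (4.05 ± 0.25, adjusted p = 1.9e-13), stood at 731 ± 68.3 at P5 and at 267 ± 13 at P60, and fell from P1 to P60 (-1.32 ± 0.23, adjusted p = 1.4e-05). Itgav rose from 55.9 ± 25.8 to 337 ± 6.87 CPM from E13 to E17 (2.59 ± 0.21, adjusted p = 4.2e-11). The microfibril gene Fbn2, whose product anchors latent complexes, fell from 265 ± 31.3 CPM at P1 to 3.49 ± 0.516 at P60 (-6.24 ± 0.27, adjusted p = 5.7e-17). The latency protein gene Ltbp4 rose from 19 ± 11.6 CPM at E13 to 139 ± 15 at E17 (2.88 ± 0.40, adjusted p = 5.8e-07). Without the E13 libraries the test of its stage means did not pass (range 0.84, adjusted p = 0.236).

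Of the other receptors and co-receptors, 10 of 11 were called along the timeline, against 70.3% of all genes. Between P1 and P60 5 were higher and 1 lower, against 20.3% and 15.2% of all genes (median change 0.88 against -0.02). Acvrl1 (ALK1), a type I receptor of endothelial cells, was at 29.3 ± 0.928 CPM at E17, 9.52 ± 1.86 at P1 and 49.6 ± 6.67 at P60, and it fell from E17 to P1 (-1.62 ± 0.19, adjusted p = 2.1e-07) and rose from P1 to P60 (2.38 ± 0.20, adjusted p = 4.1e-11). Eng (endoglin), its endothelial co-receptor, was at 28.8 ± 2.31, 18.3 ± 4.21 and 52.3 ± 10 CPM at the same stages (P1 to P60 1.52 ± 0.25, adjusted p = 7.2e-06). Both had their P1 level below E17, as did the sum of the endothelial markers given above, whose part was not tested. The activin receptor gene Acvr2b (1.82 ± 0.19, adjusted p = 5.1e-09) and Vasn, which encodes a protein that binds TGF-beta (2.33 ± 0.28, adjusted p = 4e-08), also rose from P1 to P60.

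Of the Smads and their regulators, 10 of 16 were called along the timeline, against 70.3% of all genes. Smad3, a signal-carrying Smad, fell from 86.7 ± 17.2 CPM at E13 to 43.5 ± 2.85 at E17 (-0.99 ± 0.11, adjusted p = 2.7e-08) and to 25.6 ± 2.15 at P1 (-0.77 ± 0.12, adjusted p = 8.7e-06). Smad2 had stage means of 49.6 to 73.4 CPM and Smad4 of 58 to 78.2 CPM, and both passed along the timeline (adjusted p = 0.00078 and 9.8e-05) with stage means less than 2-fold apart. The corepressor gene Skil fell from 30.5 ± 3.63 CPM at P1 to 11.7 ± 1.76 at P60 (-1.38 ± 0.23, adjusted p = 1.1e-05), where its relative Ski rose. Smurf1, a ubiquitin ligase that acts on Smads and receptors, rose from 75.6 ± 7.87 to 189 ± 7.72 CPM between these stages (1.32 ± 0.11, adjusted p = 4.9e-11). Pmepa1, an inhibitor gene induced by TGF-beta, fell from 41.6 ± 5.24 to 23 ± 6.84 CPM (-0.85 ± 0.18, adjusted p = 0.00026).

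Of 15 genes known to be induced by TGF-beta in many cells, 13 were called along the timeline, against 70.3% of all genes. Between P1 and P60 6 were higher and 4 lower, against 20.3% and 15.2% of all genes (median change 0.32 against -0.02). Tagln, a smooth muscle actin-binding protein gene, was at 2.71 ± 0.238 CPM at E17 and 396 ± 20.5 at P60 and rose from P1 to P60 (5.47 ± 0.25, adjusted p = 3e-16). Lox, a collagen cross-linking enzyme gene, rose from 49.4 ± 12.9 to 1213 ± 31.4 CPM (4.62 ± 0.28, adjusted p = 1e-13). The matrix genes Postn and Tnc fell, Postn from 1536 ± 239 to 85.2 ± 54.8 CPM (-4.17 ± 0.52, adjusted p = 9e-08) and Tnc from 181 ± 19.6 to 18.9 ± 4.26 CPM (-3.27 ± 0.21, adjusted p = 1.6e-13). Genes of this list therefore went both ways over the same stages. Acta2 is both on this list and among the pericyte and smooth muscle markers, whose sums were higher at P60 than at P1.

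Of the activin and BMP ligands and antagonists, 18 of 18 tested were called along the timeline, against 70.3% of all genes. From E13 to E17 2 were called higher and 12 lower, against 14.2% and 21.2% of all genes, with a median change of -1.92 against -0.08. Between P1 and P60 11 were higher and 4 lower, against 20.3% and 15.2%, with a median of 1.60 against -0.02. Bmp7 fell from 44.5 ± 7.09 CPM at E13 to 6.51 ± 0.585 at E17 (-2.77 ± 0.16, adjusted p = 3.6e-14) and rose to 160 ± 22.2 at P60 (P1 to P60 4.37 ± 0.17, adjusted p = 5.4e-18). Bmp4 and Gdf10 had the same turn at lower levels, with changes of -3.84 ± 0.41 (adjusted p = 7.3e-09) and -5.55 ± 0.66 (adjusted p = 5.1e-08) from E13 to E17 and of 2.29 ± 0.40 (adjusted p = 1.8e-05) and 4.26 ± 0.70 (adjusted p = 7e-06) from P1 to P60. Fst (follistatin), which binds and blocks activins, moved the other way, from 7.24 ± 2.17 CPM at E13 to 39 ± 2.15 at E17 (2.42 ± 0.17, adjusted p = 2.6e-12) and from 76.6 ± 9.27 at P1 to 8.97 ± 2.22 at P60 (-3.10 ± 0.18, adjusted p = 2.3e-14).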

How the data were processed

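Poly-A RNA of mouse peripheral nerve was measured in 28 libraries, 4 at each of 7 stages. For the authors' libraries a stranded TruSeq mRNA kit was used, with single-end sequencing on a HiSeq4000, trimming of the reads, alignment with STAR 2.6.1c and counting by featureCounts. The deposited values are whole read counts for each gene, with no normalization by the authors. The methods name a human build for the alignment, whereas the submitters' processing notes name GRCm38.p5 and the identifiers are those of mouse. The strand setting and the treatment of reads that align to several places are not given in the sources used here, so that values of overlapping genes are uncertain. Of 41605 gene identifiers, 41519 (99.79%) matched GENCODE M21 (GRCm38), which supplied symbols, positions, GC content and exon lengths, and 86 had no symbol.

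Genes were kept by filterByExpr (17700), library sizes scaled by TMM, and all 28 libraries fitted in edgeR 4.0.16 (R 4.3.3, estimateDisp, robust glmQLFit, glmQLFTest) with stage as its single factor, since the study names no test for this timeline. The common dispersion was 0.0439. The contrasts were the 6 adjacent pairs and P1 to P60, and all 21 pairs for the order of stages, with Benjamini-Hochberg adjustment over all genes tested within each contrast. Ligand shares and the receptor ratio used counts divided by exon length and two-sided exact permutation tests between E17 and P60. No libraries held identical values, and replicates of a stage differed beyond counting error in all 42 pairs (lowest chi-square per degree of freedom 5.21). The edgeR p-values set a difference between stages against the spread of libraries within stages, estimated over all 28 libraries together.

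The members, the wider lists, the markers and the tests were chosen with earlier results of these data known. All 10 members were reported in every comparison. Of each list up to 4 genes were named, those with the widest range of stage means (log2 CPM, prior count 2) among genes called along the timeline with at least 10 CPM in the highest stage, Smad2 and Smad4 being named outside that rule after their values were seen. For each member, the 3 nearest genes by stage profile were named, apart from 1 that is not reported here. GC slopes used 10028 genes. Promoters are from RefSeq. The alternatives were other scalings and filters, DESeq2 1.42.0, limma 3.58.1 (voom with quality weights), fits on fewer stages or libraries, removal of a GC trend (lowess, span 0.4), a replicate block, other lengths for the shares, and each library left out in turn. The edgeR fit and the GC slope were tested on counts simulated from the P1 and P5 libraries alone. The fit of all stages, DESeq2 and limma-voom were not tested in that way.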

Additional observations from a re-analysis of the deposited data

Results flagged for a closer look

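Among the 98 groups of 4 libraries that were examined (10 genes, 3 ligand shares and the receptor ratio at 7 stages), 2 held a library far from the other 3, where chance at the 95% level would give about 4.9. Smad7 was at 2.82 CPM in P5 replicate 3, while the other P5 libraries were at 1.46 to 1.62 CPM. Ski was at 87.9 CPM in P1 replicate 1, while the other P1 libraries were at 121 to 125 CPM. That library followed GC content with a slope of -0.43 log2 units per 10 percentage points, and the GC content of Ski is 55.6%.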

How the results depend on the processing

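Of the 70 changes of members tested over 7 comparisons, 12 passed with at least 2-fold, and these 12 passed in the same direction under all alternatives that could be fitted. Of 15 that passed below 2-fold, 3 did so under every alternative, and of 43 that did not pass, 12 passed under at least 1. None turned direction past the threshold. With no fold minimum the members called numbered 5 from E17 to P1 instead of 1, 2 from P1 to P5 instead of 1, 5 from P5 to P14 instead of 0 and 2 from P24 to P60 instead of 0, and pathway genes 23, 10, 25, 10 and 17 over the steps from E17 on instead of 9, 6, 15, 5 and 10. With limma-voom they were 1 member from P24 to P60 and 9 pathway genes from P14 to P24. On library size only no member was called from P1 to P5 (0), and neighbouring stages that differed numbered 1 instead of 0 for Ltbp1, 0 instead of 1 for Ski and 2 instead of 4 for Tgfbr2. Against TMM, that scaling moved the median change of all genes by -0.25, -0.11, -0.19, -0.17, 0.06 and 0.10 over the 6 steps and by -0.19 from P1 to P60, and the share of called genes that were higher from 40.1% to 28.7%, 53.8% to 43%, 69.4% to 44.7% and 59.1% to 46.2% over the first 4. Causes were not tested.

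Leaving out 1 library gave 1 to 2 members from E17 to P1 (2 without P1 replicate 3), 0 to 1 from P1 to P5 (0 without P1 replicate 2 or 4), 0 to 1 from P5 to P14 (1 without P5 replicate 3), 0 to 1 from P24 to P60 (1 without P24 replicate 2 or P60 replicate 1), and 2 to 7 pathway genes from P14 to P24 (2 without P24 replicate 1, 7 without P24 replicate 2). Whether replicate numbers pair the libraries was not settled. Between libraries of the same number at different stages, deviations from the stage mean had correlations of -0.202 to 0.571. These were above 0.1 in 33 of 84 pairs. Only 1 library correlated best with its own number in every other stage, a condition too strict to decide against pairing. Under the replicate block 1 member no longer passed, Tgfbr2 from P5 to P14 (0.24, adjusted p = 0.0607), and no change of at least 2-fold was lost. Depth limits Smad7 most, with 31 counts in its lowest library.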
